A study of Homo sapiens with 2 samples.

Results

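The long arm of chromosome 8 (8q) held 349 of the 15064 ATF1 peaks listed for HCT116 cells, or 2.32% of the table. Its peaks were taken as all rows of chromosome 8 with a summit above 45 Mb in hg38. They were set beside the 201 peaks of chromosome 8 at or below that position, called the short-arm side here, and the 14122 peaks of the other 21 autosomes. The choice used position alone. No summit lay near the boundary: the last peak below it, at HGSNAT, had its summit at 43140386 with 15.44-fold enrichment, and the first above it, at LOC107986885, at 47133372 with 5.95-fold.

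The study used HCT116, a human colon carcinoma line, and made 1 chromatin immunoprecipitation (ChIP) library of 3xFlag-ATF1, a tagged form of the factor, beside 1 library of input DNA from the same line. The sources used here do not say how the tagged form was brought into the cells or whether their own ATF1 was kept. The medium held 10% serum, crosslinking used 1% formaldehyde, and chromatin was sheared to fragments of 200 to 400 bp. Peaks of the ChIP library were analysed without a table of the input, and there was no replicate, so no value below carries a test between conditions. The table names each gene once, gives each peak to 1 gene and reaches 2 kb beyond it.

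ATF1 is a close relative of CREB1 that binds cAMP response elements, mostly in promoters, through a basic leucine zipper, and is activated by kinases such as protein kinase A. The long arm of chromosome 8 carries MYC, a driver of cell growth that is often over-expressed in colorectal cancer, in a region poor in other protein-coding genes. It also carries many housekeeping genes of translation, respiration, DNA repair and protein turnover. HCT116 is known to have gained part of this arm. Copy number was not measured here.

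Of the 10 strongest ATF1 peaks of 8q, 8 had a summit less than 1 kb from a protein-coding gene's end, and the exceptions were at UBE2V2 and the non-coding LOC105375782. A peak's strength was read as the authors' fold enrichment, its ratio to a background that the sources used here do not specify, and its tags as the number of sequenced tags in the peak. The peak upstream of OTUD6B, which encodes a deubiquitinase, led with 33.67-fold enrichment and 241 tags (95% Poisson interval 212 to 273, counting error only). It lay on chromosome 8 from 91069455 to 91070893, with the summit 2 bp outside the gene as the table draws it. VIRMA, listed under its older name KIAA1429, encodes a subunit of the complex that methylates adenosine in mRNA, and had 30.38-fold enrichment and 151 tags in an upstream peak. EMC2, of the complex that inserts proteins into the endoplasmic reticulum membrane, had 30.33-fold enrichment and 232 tags, also upstream. An intronic peak at C8orf33, 42 bp from an end of the gene, had 27.27-fold enrichment and 258 tags.

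Next came UBE2V2, which encodes a partner of the ubiquitin-conjugating enzyme UBE2N in the tolerance of DNA damage. Its intronic peak had 25.80-fold enrichment and 426 tags, but its summit was 10965 bp away from the nearer end of UBE2V2 in the reference. Only the outer ends of genes were used, so a transcript start inside the gene would not be seen. GEM, which encodes a small GTPase of the RAD and GEM family, followed with 23.57-fold and 357 tags upstream. MRPS28, a subunit of the mitochondrial ribosome, had 23.26-fold and 147 tags in an exonic peak. DCAF13, which acts in ribosome biogenesis, shared its exonic peak of 21.88-fold and 496 tags with its neighbour SLC25A32, a mitochondrial carrier. The last of the 10 strongest were the peak upstream of LOC105375782, an uncharacterised gene for a long non-coding RNA, with 20.95-fold and 512 tags, and the peak upstream of PHF20L1, which encodes a chromatin reader, with 20.22-fold and 483 tags. Fold enrichment and tags ranked these peaks differently: VIRMA exceeded 98.6% of all listed peaks by fold enrichment and 47.7% by tags.

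**Figure D1:**
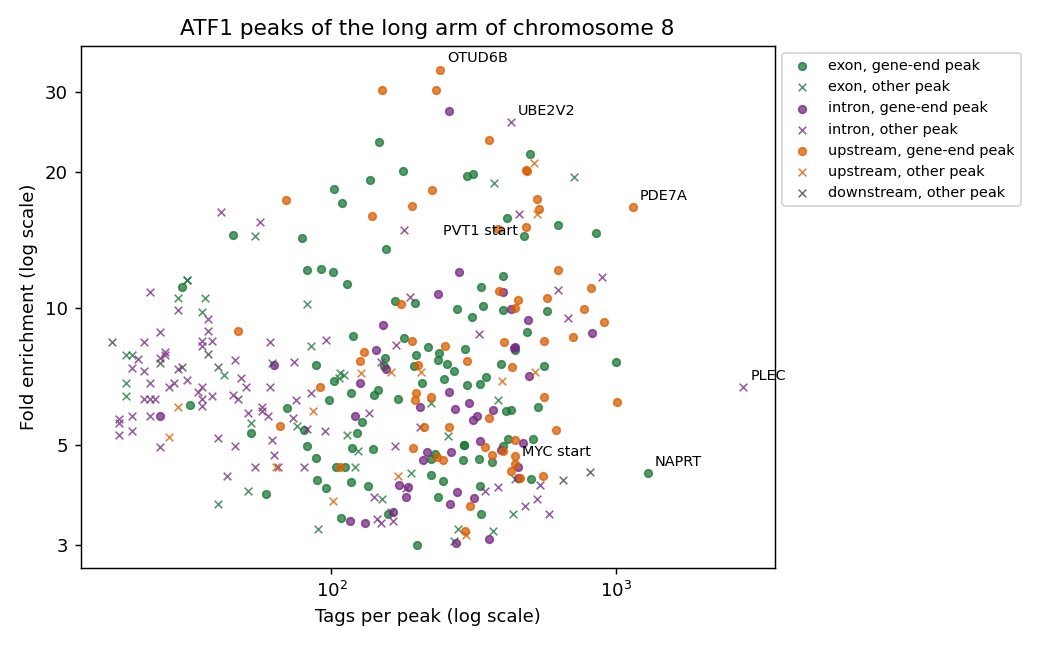
Tags per peak (x axis, log scale) against fold enrichment (y axis, log scale) for the 349 peaks of 8q, coloured by the authors' class, with circles for gene-end peaks, whose summits are within 1 kb of a protein-coding gene's end, and crosses for the others. The highest circle is OTUD6B at 33.67-fold, the peak at the start of MYC sits low at 4.54-fold with 441 tags, and PLEC stands at the far right with 2786 tags and 6.70-fold enrichment.

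The peaks of most tags were others. The PLEC peak, inside the gene for the cytoskeletal linker plectin, held 2786 tags over 26948 bp, with 6.70-fold enrichment. The NAPRT peak, at the gene for a nicotinic acid salvage enzyme, held 1288 tags over 16777 bp, with 4.32-fold. PDE7A, which encodes a phosphodiesterase that breaks down cAMP, combined many tags with high enrichment, at 1140 tags and 16.75-fold over 2607 bp, a length above the upper quartile of 8q peaks (2244 bp). EEF1D, a translation elongation factor subunit, had 1003 tags and 6.22-fold, and KLF10, a zinc finger transcription factor, 999 tags and 7.63-fold. Over the 349 peaks of the arm, Spearman's rho was 0.83 between tags and peak length, 0.03 between tags and fold enrichment, and -0.27 between length and fold enrichment. These correlations are over peaks of 1 library. Over the other autosomes they were 0.82, 0.08 and -0.23.

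ATF1 peaks of 8q were found at gene ends about as often as elsewhere, and more often than on the short-arm side. Gene-end peaks here are those with a summit no more than 1 kb from an outer end of any protein-coding gene, start or finish, since the reference table used gives no strand. Of the 349 peaks, 202 met this, or 57.9% (95% Clopper-Pearson interval 52.5 to 63.1%), beside a background of 56.1% over all listed peaks. The share was 46.8% on the short-arm side (94 of 201, interval 39.7 to 53.9%) and 55.8% on the other autosomes (interval 54.9 to 56.6%). Single autosomes ranged from 44.6% on chromosome 21 to 60.4% on chromosome 3, and 7 of 21 lay above 8q.

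Counted over genes, 226 of the 423 protein-coding genes of 8q had such a peak, or 53.4% (interval 48.5 to 58.3%), beside a background of 48.0% over all protein-coding genes of the table's chromosomes. On the short-arm side 105 of 292 genes had one, or 36.0% (interval 30.5 to 41.8%). That share was near the lowest of the single autosomes, 35.6% on chromosome 21. Genes that share a peak are each counted, so these intervals do not test a difference between the 2 sides of chromosome 8. On the other autosomes the share was 48.7% (interval 47.9 to 49.4%). Only 2 of the 21 autosomes had a higher share than 8q, the highest being chromosome 18 at 57.0%. The peaks of 52 of the 226 genes were listed under another gene's name, as the table gives each peak to 1 gene. Listed peaks per 100 protein-coding genes numbered 82.5 on 8q (95% Poisson interval 74.1 to 91.6), 68.8 on the short-arm side (59.6 to 79.0) and 76.7 on the other autosomes (75.4 to 78.0).

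By the authors' classes, 136 peaks of 8q were exonic (39.0%, interval 33.8 to 44.3%), 131 intronic (37.5%, 32.4 to 42.8%), 75 upstream within 2 kb (21.5%, 17.3 to 26.2%) and 7 downstream (2.01%, 0.810 to 4.09%). On the short-arm side 39.3% were exonic, 43.3% intronic, 13.4% upstream and 3.98% downstream. The other autosomes had 43.6% exonic, 33.8% intronic, 19.9% upstream and 2.75% downstream peaks. Gene-end peaks of 8q numbered 98 among the exonic, 43 among the intronic and 61 among the upstream peaks. Median values of the upstream peaks were 306 tags and 7.25-fold, and 53 of the 75 summits were within 200 bp of the assigned gene. Intronic peaks of 8q had a median of 116 tags, against 61 on the short-arm side and 86 on the other autosomes, where the single chromosomes reached at most 115. This rested on the end of the arm: the median was 183 tags for the 37 intronic peaks beyond 140 Mb and 83.5 for the other 94. None of the 7 downstream peaks was a gene-end peak, and their median was 37 tags.

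A further 86 peaks of 8q, or 24.6% (interval 20.2 to 29.5%), lay more than 10 kb from the ends of protein-coding genes, against 29.4% on the short-arm side and 20.8% on the other autosomes. Their median of 40.5 tags was below the 258 tags of gene-end peaks, while their median fold enrichment of 6.69 was close to that of gene-end peaks, 6.83. Of the 86, 22 had a summit within 1 kb of the end of some other annotated gene. Transcript starts inside a gene were not among the ends used, so a peak at such a start could count as far. UBE2V2 led the 86 by fold enrichment, followed by LOC105375771, with 16.32-fold enrichment on 41 tags (Poisson interval 29.4 to 55.6). The next, listed under MIR1204, lay at the start of PVT1 and is described with the MYC region. LOC105375822 had 16.18-fold and 455 tags, and LOC105375840 15.53-fold and 56 tags. Both were intronic.

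In the MYC region, the peak at the non-coding neighbour PVT1 was stronger by fold enrichment than the peak at MYC itself. The table had no row named MYC. A peak from 127734733 to 127739379, listed as upstream of the non-coding CASC11, had its summit at 127735658, which is 224 bp from the start of MYC in the reference. It held 441 tags (Poisson interval 401 to 484) over 4647 bp, with 4.54-fold enrichment, above 16.3% of listed peaks. PVT1 makes a long non-coding RNA and is often co-amplified with MYC. A peak from 127793640 to 127795193, listed as upstream of the microRNA gene MIR1204, had its summit 8 bp from an end of PVT1. It held 528 tags (interval 484 to 575) over 1554 bp, with 16.20-fold enrichment, above 91.7% of listed peaks. The row named PVT1 was a second, intronic peak of 74 tags and 7.62-fold. The peak at PVT1 thus had somewhat more tags than that at MYC and a far higher fold enrichment, over a shorter stretch.

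Another 3 listed peaks lay within 1.5 Mb of MYC. LRATD2, listed as FAM84B, had a gene-end peak of 400 tags and 4.97-fold. POU5F1B, a retrogene of the pluripotency factor OCT4, had 31 tags and 11.58-fold in an exonic peak, 1417 bp from an end of the gene, and LOC105375751 an intronic peak of 26 tags and 8.03-fold. Sequence shared with other copies of the retrogene makes its value uncertain, since the sources used here do not say how reads with several matches were treated. Over the wider neighbourhood, 7 of 11 protein-coding genes of a list around MYC had a gene-end peak (63.6%, interval 30.8 to 89.1%). TRIB1, a pseudokinase gene, had 8.65-fold and 707 tags. SQLE, which encodes squalene epoxidase of cholesterol synthesis, had 10.46-fold and 451 tags in a peak listed under LOC105375744. NSMCE2, a SUMO ligase of DNA repair, and WASHC5, of the endosomal WASH complex, shared a peak of 19.65-fold and 300 tags. ASAP1 and ADCY8 were listed with intronic peaks, of 29 and 35 tags, and GSDMC had no listed peak. None of the non-coding genes CASC8, CASC19, CASC21, PCAT1, PRNCR1, CCAT1 and CCAT2 was named in a row with a position. CCAT1 was named in the 1 line that gives no position or values.

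Pooled over 8q, peaks at the ends of 2 genes had higher median fold enrichment and more tags than those at 1 gene, though not in every stretch of the arm. On 8q, 26 summits did so, or 7.45% of peaks (interval 4.92 to 10.7%), against 5.97% on the short-arm side and 9.16% on the other autosomes. Their median was 9.09-fold and 362.5 tags, beside 6.54-fold and 246.5 tags for the 176 peaks at a single gene. The other autosomes showed the same order, with 8.88-fold and 264.5 tags for shared peaks against 7.28-fold and 243 tags. Taken singly, 0 of 21 autosomes had a lower median fold enrichment at shared peaks, but 6 had fewer tags. Within 8q, the 6 shared peaks from 70 to 100 Mb had a lower median fold enrichment, 5.76 against 7.64. Shared peaks had fewer tags from 45 to 70 Mb (251 against 265.5) and from 120 to 140 Mb (331 against 355.5). Of the shared peaks of 8q, 11 had at least 10-fold enrichment. Besides those already named, they included ENY2, a transcription and mRNA export factor, with NUDCD1 (19.17-fold, 137 tags), and the respiratory chain gene NDUFB9 with TATDN1 (18.34-fold, 102 tags). UTP23, of ribosome biogenesis, shared a peak with EIF3H, a translation initiation factor subunit (18.26-fold, 226 tags), and POP1, of RNase P, shared 1 with RIDA (16.80-fold, 191 tags). MCM4, of the replicative helicase, and PRKDC, the DNA-dependent protein kinase, shared a peak of 8.86-fold and 487 tags. The weakest was that of EXOSC4 and OPLAH, at 3.01-fold and 200 tags, which was also the lowest fold enrichment of the arm. Some pairs are readthrough or nested genes (EBAG9 and EBAG9UORF, for example) and do not stand for 2 promoters.

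The end of the arm differed from the rest in the shape of its peaks. Beyond 140 Mb lay 94 of the 349 peaks and 104 of the 423 protein-coding genes. The median length there was 2339 bp, against 1547 bp over the other 255 peaks of 8q. Median tags were 246.5 against 156, and median fold enrichment 5.76 against 7.00. All 15 peaks of 8q over 5 kb lay in this stretch, where they made up 16.0% of peaks (interval 9.22 to 25.0%). Among the other 255 peaks there were 0, which allows a share of up to 1.18%. The 15 wide peaks held 11536 of the 85293 tags in peaks of 8q, or 13.5%. Besides PLEC and NAPRT they included MINCR, a MYC-induced long non-coding RNA gene, at 11451 bp and 4.35-fold. CYHR1, now ZFTRAF1, was the single wide peak above 10-fold, at 18.88-fold and 5354 bp, 6377 bp from the nearest gene end. It and the peaks of GRINA (8.46-fold, 6529 bp) and C8orf82 (9.31-fold, 5201 bp) are named after their values were seen.

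Among windows of 10 Mb with at least 10 peaks, the end of 8q had a longer median peak than 98.5% of the 267 windows outside 8q and a lower median fold enrichment than all but 3.75% of them. The 4 windows with a longer median were each the last of their chromosome: on chromosome 22 (3584 bp, 4.57-fold), 17 (2770.5 bp, 6.04-fold), 20 (2436 bp, 5.35-fold) and 2 (2375 bp, 5.93-fold). Over the last windows of the 18 autosomes that had enough peaks there, compared after these values were seen, median lengths ran from 1281 to 3584 bp with a median of 1824.5 bp, and median fold enrichments from 4.57 to 8.33 with a median of 6.03. Long peaks of low enrichment were thus found at other chromosome ends too. Among the windows outside 8q, 32 held at least as many peaks as the end of 8q, a choice that leaves out those 4. Their median lengths ran from 1358.5 to 2297 bp, below 2339 bp, and their median fold enrichments from 5.62 to 8.42, with 3 below 5.76. At the end of 8q 49.0% of genes had a gene-end peak, within their range of 28.6 to 61.4%.

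**Figure D2:**
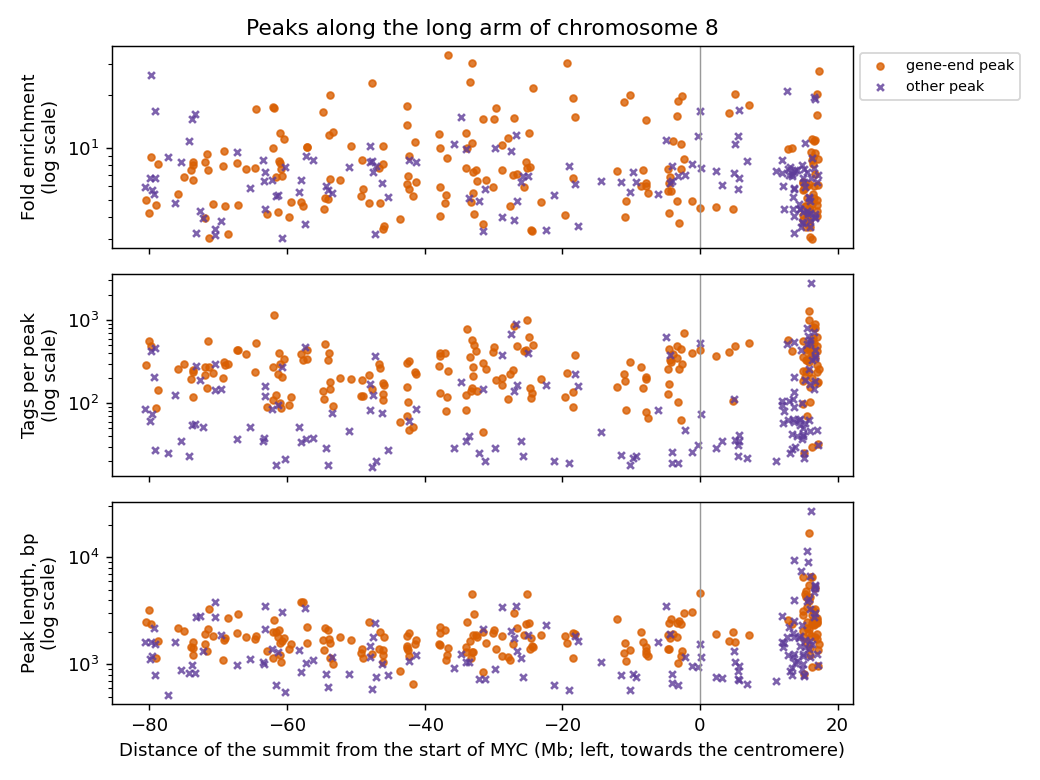
Fold enrichment, tags per peak and peak length (y axes, log scale) of the 349 peaks of 8q against the distance of the summit from the start of MYC (x axis, Mb, centromere to the left), with orange circles for gene-end peaks and purple crosses for the others. All 15 peaks over 5 kb stand in the dense group at the right, and a thin stretch with few gene-end peaks lies between that group and MYC.

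Along the rest of the arm the medians varied without a steady course. The window from 130 to 140 Mb had few tags and few gene-end peaks. Its 19 peaks had a median of 57 tags (interval 31 to 111), lower than in all but 0.75% of the windows outside 8q, with a median fold enrichment of 7.33. Only 5 of its 21 protein-coding genes were marked by one, and 26.3% of its peaks were gene-end peaks. From 120 to 130 Mb, the window that holds MYC, 29 peaks had a median of 261 tags (interval 74 to 388), more than in 95.5% of the windows outside 8q, and 7.01-fold, and 23 of 35 genes had a gene-end peak. The other windows up to 120 Mb had medians between 121 and 209 tags and between 6.32 and 7.49-fold, and between 48.8% and 61.1% of their genes had a gene-end peak. The longest stretches without a listed peak were 3.90 Mb between LOC102723694 and COL22A1, holding 2 protein-coding genes, and 3.46 Mb between KCNV1 and CSMD3, holding 0.

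Among the 11 gene lists, gene-end peaks were most frequent at zinc finger genes of the distal end and genes of DNA replication and repair. Genes of the respiratory chain and mitochondria came next, and tissue-restricted genes had the lowest share. The 11 lists used held 213 distinct protein-coding genes of the arm. They overlap in part, and their shares are set beside the 53.4% of all 423 genes of the arm, whose gene-end peaks had a median of 7.09-fold and 270 tags. The lists were written with earlier results of these data known, so their shares are no independent evidence. They are described by their counts and medians, and none was tested.

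Of 17 DNA replication and repair genes, 14 had such a peak (82.4%, interval 56.6 to 96.2%), with a median of 6.55-fold. TERF1, a telomere-binding protein gene, had 15.96-fold and 139 tags. RECQL4, a DNA helicase gene, had 11.11-fold and 814 tags in a peak shared with LRRC14. NBN, of the MRE11 complex that senses double-strand breaks, had 9.94-fold and 399 tags. At the low end, RAD21, a cohesin subunit gene, had 4.04-fold and 186 tags. UBE2V2 and TONSL were listed with peaks away from their ends, and MTBP had no listed peak.

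Of 17 genes of translation and the ribosome, 12 had one (70.6%, interval 44.0 to 89.7%), with a median of 12.37-fold. This was higher than the 7.09-fold of the arm's genes. MRPS28 and DCAF13 led, followed by UTP23 and EIF3H. The peak that UTP23 and EIF3H share counts for each of them in the median, which is lower if that peak is counted once. RPL8, of the large ribosomal subunit, had 15.27-fold and 622 tags, and PABPC1, the poly(A)-binding protein gene, 14.70-fold and 850 tags. The lowest was MTERF3, a mitochondrial transcription and ribosome assembly factor, at 3.67-fold and 306 tags. RPL30, EIF3E, MRPL13 and TYW2 had no listed peak. Ribosomal protein genes have many processed copies in the genome, so their values are uncertain in the same way as that of POU5F1B.

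Genes of the respiratory chain and mitochondria had one at 13 of 16 (81.3%, interval 54.4 to 96.0%), with a median of 9.97-fold and 147 tags. Their fold enrichments were thus above, and their tags below, those of the arm's genes. NDUFB9 had its 18.34-fold on 102 tags. UQCRB, a subunit of complex III, had 14.52-fold on 45 tags, and COX6C, of cytochrome oxidase, 11.30-fold on 113 tags. CYC1, the cytochrome c1 gene, lay in the dense end of the arm and had 4.75-fold on 367 tags.

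**Figure D3:**
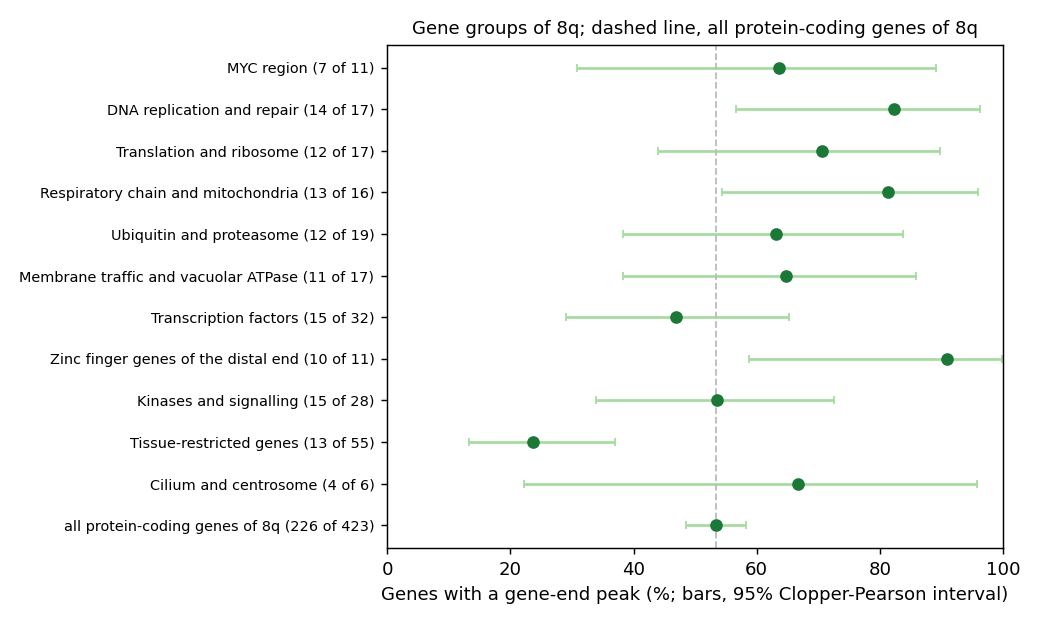
Share of protein-coding genes of 8q with a gene-end peak (x axis, %) in 11 gene lists and over all 423 genes of the arm; points are shares, bars are 95% Clopper-Pearson intervals, and the number of genes stands beside each name. Tissue-restricted genes lie lowest at 23.6%, with an interval that stays left of the dashed line at 53.4%. The lists were written with earlier results of these data known, and none was tested.

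Of 19 genes of ubiquitin conjugation and the proteasome, 12 had a peak at an end (63.2%, interval 38.4 to 83.7%; median 9.50-fold). OTUD6B led them, and ELOC, which encodes elongin C and is listed as TCEB1, had 20.07-fold and 178 tags. RNF139, a ubiquitin ligase gene of the endoplasmic reticulum, had 15.16-fold and 481 tags. FBXL6, an F-box gene, was lowest at 5.16-fold. Genes of membrane traffic and the vacuolar ATPase had one at 11 of 17 (64.7%, interval 38.3 to 85.8%; median 8.18-fold). After WASHC5 came ARFGEF1, an exchange factor for ARF GTPases (11.15-fold, 336 tags), and VPS13B, a Golgi lipid transfer protein gene (10.36-fold, 167 tags). SNX16, a sorting nexin gene, was lowest at 3.55-fold. Cilium and centrosome genes had one at 4 of 6 (66.7%, interval 22.3 to 95.7%), led by TMEM67 of the ciliary transition zone at 12.14-fold and 82 tags.

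The zinc finger genes near the end of the arm had one at 10 of 11 (90.9%, interval 58.7 to 99.8%), but mostly weak by fold enrichment, with a median of 4.58-fold and 311 tags. Low enrichment was common there: all gene-end peaks beyond 140 Mb had a median of 5.40-fold (interval 4.63 to 6.28) and 358 tags. ZNF34 stood out at 20.16-fold and 484 tags. ZNF16 followed at 8.62-fold and 180 tags, and ZNF623 was lowest at 3.83-fold and 237 tags. Zinc finger genes of this kind resemble each other in sequence, so the assignment of reads among them is uncertain.

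Genes of kinases and signalling had one at 15 of 28 (53.6%, interval 33.9 to 72.5%; median 6.76-fold), close to the share of all genes of the arm. GEM and PDE7A led, with RIPK2, a kinase of innate immune signalling, at 12.02-fold and 281 tags. FZD6, a WNT receptor gene, was lowest at 3.35-fold. YWHAZ, a 14-3-3 gene, had a peak of 11.75-fold and 892 tags that fell outside the window, 1250 bp from an end of the gene. PTK2, the focal adhesion kinase gene, was listed with an intronic peak of 25 tags and 7.78-fold. Among transcription factor genes and cofactors the count was 15 of 32 (46.9%, interval 29.1 to 65.3%; median 7.35-fold). The strongest were the general cofactors MED30, of Mediator (19.82-fold, 313 tags), and TAF2, of TFIID (14.29-fold, 79 tags). CEBPD, a basic leucine zipper gene, had 4.26-fold and 553 tags, and TOX 3.22-fold and 295 tags. A further 12 were listed with peaks away from their ends, such as SCRT1 (19.49-fold, 712 tags, 1380 bp from an end of the gene).

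Only 13 of 55 tissue-restricted genes had their end marked by a peak (23.6%, interval 13.2 to 37.0%), and those peaks had a median of 5.38-fold and 198 tags. Another 19 had a listed peak elsewhere and 23 had none. The highest at a gene end were CA3, a muscle carbonic anhydrase gene, with 8.92-fold on 47 tags, and HNF4G, a transcription factor gene active in the intestine and so of HCT116's tissue of origin, with 6.50-fold and 198 tags. The lowest was PENK, the proenkephalin gene, at 3.03-fold with 273 tags over 3260 bp. CRH, CYP7A1, FABP4 and CALB1, of hypothalamus, liver, fat and neurons, had no listed peak. No expression was measured, and a gene with no row may still be bound. A gene listed with a peak elsewhere may also have an unlisted peak at its end, since the table names each gene once.

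Tags and fold enrichment of 8q peaks were within the spread between chromosomes. Their medians were slightly above and slightly below those of the other autosomes. Both directions turned, to 156 tags and 7.00-fold, when the stretch beyond 140 Mb was left out of 8q. The other autosomes and the short-arm side kept their own chromosome ends in that comparison. The median was 178 tags on 8q (95% order-statistic interval 150 to 205), 160 on the short-arm side (103 to 200) and 166 on the other autosomes (161 to 171). Single autosomes ranged from 116 tags on chromosome 21 to 201 on chromosome 18, and 5 lay above 8q. The ratio of 8q to the short-arm side was 1.11, and it turned to 0.908 for gene-end peaks, with medians of 258 and 284 tags, and to 0.975 without the stretch beyond 140 Mb. Median fold enrichment was 6.69 on 8q (6.29 to 7.07), 6.69 on the short-arm side (6.32 to 7.29) and 6.97 on the other autosomes (6.90 to 7.02). Single autosomes lay between 6.395 and 7.37, and 16 of the 21 were above 8q. For gene-end peaks it was 6.83 on 8q (6.19 to 7.51), 7.62 on the short-arm side and 7.46 on the other autosomes, and 19 of the 21 were above 8q.

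The share of strong peaks on 8q was below that of 18 of the 21 other autosomes, but its interval held the pooled share. Peaks of at least 10-fold made up 20.1% on 8q (70 of 349, interval 16.0 to 24.6%), 21.4% on the short-arm side and 23.6% on the other autosomes, beside 23.9% over all listed peaks, and the interval of 8q holds all of these. The share was 10.6% beyond 140 Mb (10 of 94) and 23.5% over the rest of 8q (60 of 255). No peak of 8q reached 40-fold. A count of 0 among 349 allows a share of up to 0.860%, and the share over all listed peaks was 0.631%, so a lack of such peaks was not detectable with this number. The highest peak of 8q, at 33.67-fold, was below the highest of each of the 21 autosomes, the lowest of which was 38.90-fold on chromosome 15. A maximum tends to rise with the number of peaks, and 18 of the 21 autosomes had more listed peaks than 8q. At the weak end, 97 peaks of 8q were under 5-fold (27.8%, interval 23.2 to 32.8%), against 23.9% on the short-arm side, 22.4% on the other autosomes and 22.5% over all listed peaks. The interval of 8q lay above the shares of the other autosomes and of all listed peaks. Among the 21 autosomes, 20 had a lower share than 8q. Of the 97, 39 lay beyond 140 Mb. Without that stretch the share was 22.7% (58 of 255).

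**Figure D4:**
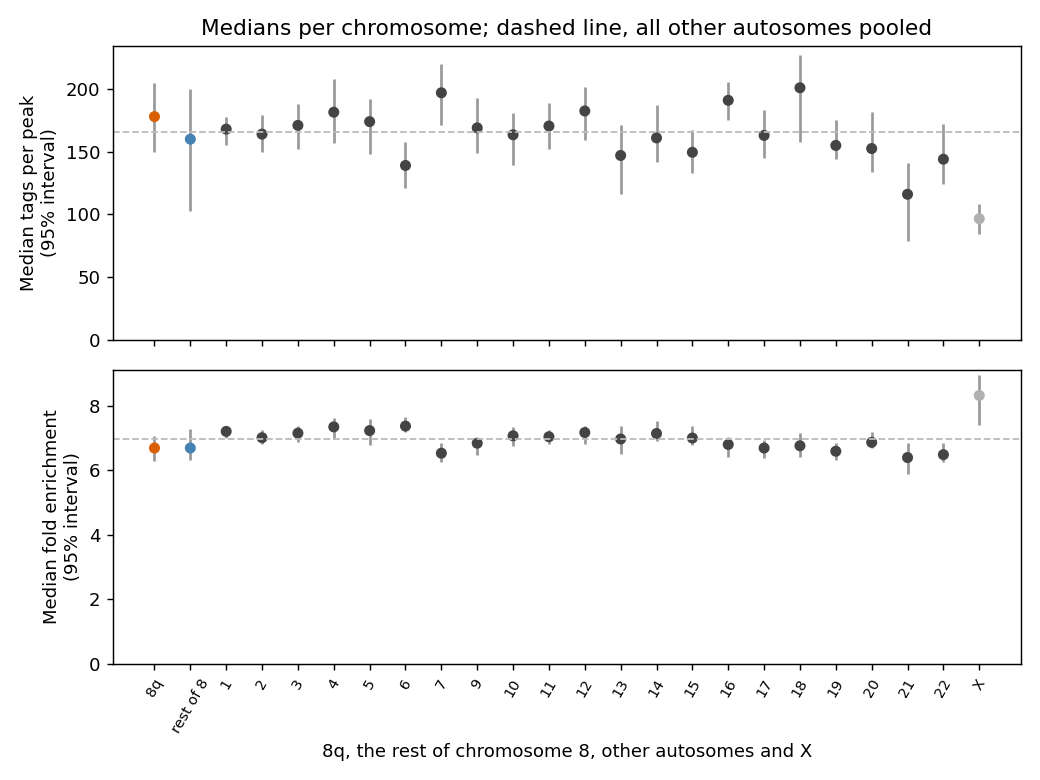
Median tags per peak (top) and median fold enrichment (bottom) on 8q, the rest of chromosome 8, each other autosome and X; bars are 95% order-statistic intervals over peaks and the dashed line is the pooled median of the other autosomes. The point for 8q, at 178 tags and 6.69-fold, lies among the autosomes in both panels.

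Tags per kb of peak divided by fold enrichment gave a further value, used here as a description only. Whether it measures a background density is not known, as the background of the fold enrichment is not specified. The value is given because copy number, which was not measured, can bear on tags and on a background drawn from the same DNA alike. Its median was 14.9 on 8q (interval 12.6 to 16.3), 11.4 on the short-arm side (9.49 to 15.2) and 12.8 on the other autosomes (12.5 to 13.0). The ratio of 8q to the other autosomes was 1.16, and single autosomes had ratios between 0.868 and 1.15, so 8q lay at the top by a small margin.

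Split by position, the difference was smaller. For gene-end peaks the ratio was 1.09 on 8q (median 18.4, interval 17.3 to 20.9) and 1.13 on the short-arm side, and 5 of the 21 autosomes lay above 8q. For other peaks it was 0.958 on 8q (median 7.59) and 0.806 on the short-arm side, so the value itself differed with the kind of peak. Chromosome X, whose copy number was not measured either, gave 0.448 for gene-end peaks and 0.943 for other peaks. Its gene-end peaks had a median fold enrichment of 9.40, against 7.46 on the other autosomes. Windows along 8q were taken over all peaks, not split by position. Those from 50 to 60 Mb and from 100 to 110 Mb had the highest medians, 18.8 and 20.8, above 95.1% and 97.8% of the windows outside 8q. Those from 110 to 120 Mb and 130 to 140 Mb had the lowest, 9.67 and 6.49. From 130 to 140 Mb only 26.3% of peaks were gene-end peaks. For gene-end peaks alone, medians by stretch of the arm ran from 16.9 (70 to 100 Mb) to 21.3 (beyond 140 Mb). The part of copy number in these values was not tested.

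**Figure D5:**
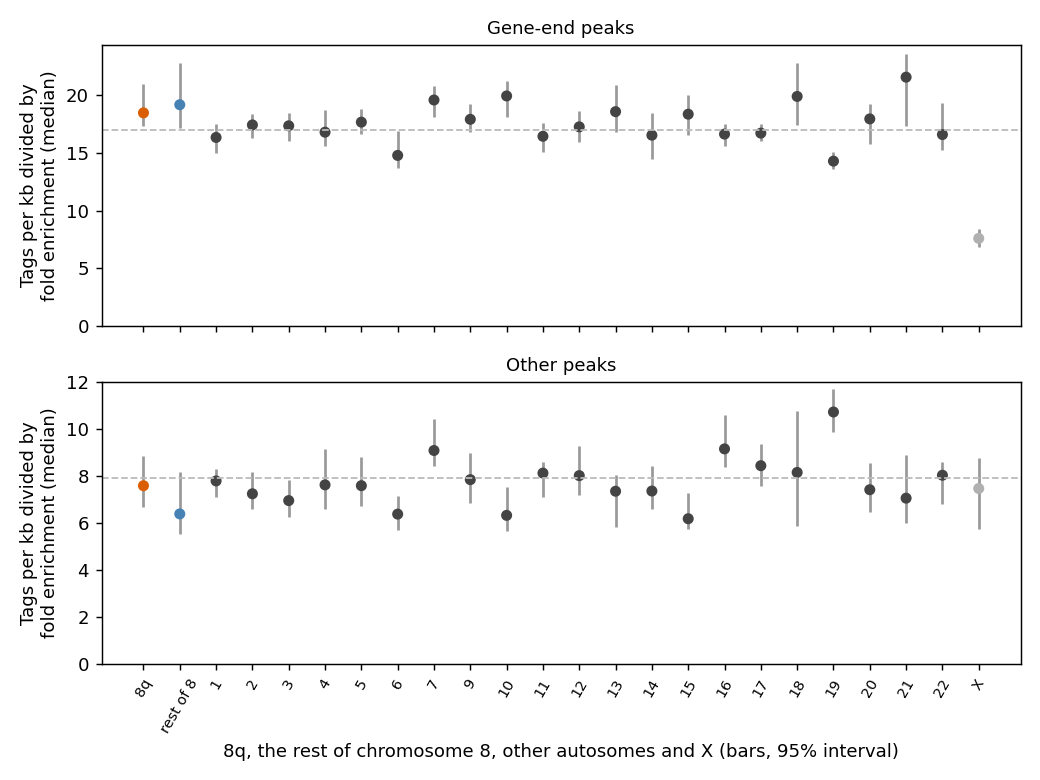
Median of tags per kb divided by fold enrichment for gene-end peaks (top) and other peaks (bottom) on 8q, the rest of chromosome 8, each other autosome and X, with 95% order-statistic intervals and the pooled value of the other autosomes as a dashed line. On 8q the gene-end value of 18.4 lies within the autosomal range, and X stands far below it at 7.60 in the top panel only.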

How the data were processed

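A peak table, that of the ChIP library, was deposited and analysed. The submitters' processing notes name CASAVA, Bowtie2, bedtools and the hg38 build. They and the other sources used here state no peak caller, control or annotation. The tag values deposited by the authors are whole-number counts, with no scaling. The authors' fold enrichment is a ratio to an unspecified background and starts at 3, and the authors' score starts at 50. Left out was 1 line, naming CCAT1, that gives no position. The reads per library are unknown.

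Gene ends came from RefSeq (GRCh38.p14, the assembly of hg38), which matched 323 of the 349 gene names of 8q by current or older symbol. Medians carry exact binomial order-statistic intervals, shares Clopper-Pearson and counts Poisson intervals, all 95%, over peaks or genes of 1 library. The floor for a share of 0 is 3 counts. Named genes were the 10 strongest peaks by fold enrichment, the 5 with most tags, the 5 strongest over 10 kb from gene ends, the 3 longest, those within 1.5 Mb of MYC, and in each list up to 4 strongest members and the lowest. Other genes named serve as examples chosen with their values known. The members and lists were chosen with earlier results of these data known. The steps were tested on simulated peaks. The planned search for the cAMP response element was not run, and no sequence of this chromosome is shown. Python 3.11.15, numpy 2.4.6, pandas 2.3.3, scipy 1.17.1 and matplotlib 3.10.9 were used.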

Additional observations from a re-analysis of the deposited data

How the results depend on the processing

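The settings changed the peaks used, the window, the gene set, the stretch of the arm and the range of peak lengths; of 67 values for 11 results, 42 stayed within the interval of the value reported. No paired analysis was possible because there is 1 ChIP library, and none could be left out. With at least 5-fold peaks only, median fold enrichment was 7.64, genes with a gene-end peak 38.8%, peaks per 100 genes 59.6 and the ratio of median tags to the short-arm side 1.32. With the peaks above the median fold enrichment of the table these were 9.47, 27.2% and 37.6, and intronic peaks made up 29.6%. With peaks from the median score upwards, median tags were 329, median fold enrichment 7.88, gene-end peaks 76.2%, genes with one 38.8%, peaks per 100 genes 43.7, intronic peaks 26.5% and upstream peaks 30.8%. A 500 bp window gave 49.6% of peaks and 45.6% of genes, and a 5 kb window 69.3% and 65.5%. Ends of all annotated genes gave 68.2% of peaks and 23.0 peaks per 100 genes. Gene-end peaks alone had a median of 258 tags. Without the end of the arm beyond 140 Mb, downstream peaks were 0.392%. The ratio of median tags on 8q to the short-arm side, 1.11 over all peaks, was below 1 under 4 of 7 settings: 0.908 for gene-end peaks, 0.898 for peaks of 1000 to 2000 bp, 0.975 without the end of the arm and 0.979 for the peaks above the median fold enrichment. Without the end of the arm, median tags (156) and fold enrichment (7.00) also changed sides of the other autosomes' medians. Only 8q was cut in this setting, and the other autosomes and the short-arm side kept their own chromosome ends. Filters on strength keep fewer peaks by construction, and the cause of the turns was not tested. The cAMP response element settings were not run. Depth is unknown, so weak binding cannot be told from none.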
